A study of Homo sapiens with 9 samples.

Results

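The replication-dependent histone genes are the multicopy genes for the core histones H2A, H2B, H3 and H4 and for the linker histones H1-1 to H1-6. They were chosen by name: every gene whose current symbol is H1-1 to H1-6, or starts with H2AC, H2BC, H3C or H4C followed by a number, pseudogenes left out. Of the 28395 genes in the count files, 69 met this rule, 6 for H1, 17 for H2A, 18 for H2B, 13 for H3 and 15 for H4. A further gene of the reference table that meets the rule, H2BC12L, was not analysed here. The cells were Caco-2, an established line from a human colon tumour that takes on enterocyte features when grown past confluence, used here after differentiation. They were kept for 24 h with 10 µM carmine, with 20 µM carminic acid or in medium without either dye (control), and total RNA of 3 samples per group, lettered A, B and C, was sequenced. Carminic acid is a red insect dye and carmine its aluminium complex. The stated concentrations of both dyes differ, so compound and concentration cannot be told apart. Caco-2 is a single tumour-derived line, and the labels leave unsaid whether samples A, B and C were separate cultures. P-values therefore speak only to the spread among the sequenced samples, which may be technical.

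Cells that copy their DNA have to package the new strands, and the replication-dependent genes supply the histones for this during S phase. Their classic mRNAs have no introns and no poly(A) tail, and end just after a short stem-loop that is bound by the stem-loop binding protein SLBP and cut with the help of the U7 small nuclear ribonucleoprotein. Some members can also be read through to a downstream poly(A) signal, which gives a polyadenylated mRNA that does not depend on S phase, as described in differentiated cells. Replication-independent relatives such as H3-3A and H2AZ1 lie alone in the genome and are made through the cell cycle.

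The stem-loop is the sequence that sets these mRNAs apart, and its variants among the members are shown here. It was searched for in the GENCODE release 29 transcripts (GRCh38), within 100 bases after the stop codon, as 16 bases that start with GG, end with CC, have TT at the start of the loop and can form at least 5 base pairs. It was found in 30 of the 35 members whose annotated transcripts run at least 30 bases past the stop codon, 22 to 67 bases after it. The other 34 members, H2BC12 and H1-2 among them, have shorter annotated ends and were not assessed. The core was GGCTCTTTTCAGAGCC in 17 H2A, H2B and H3 genes and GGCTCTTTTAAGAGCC in 4 more H2B and H3 genes. It was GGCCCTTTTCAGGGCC in 5 H4 genes and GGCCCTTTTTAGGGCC in the other 3 H4 genes. H2AC11 alone held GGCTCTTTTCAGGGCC, which joins the left arm of the first kind to the right arm of the H4 kind. The lines below give the stem-loop in capitals with 5 bases on either side, as DNA, for the 4 leading members where it was found, for H2BC9, which is of middle level, for H2AC11 and for each H4 kind.
H2BC5: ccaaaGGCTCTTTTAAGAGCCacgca
H2AC6: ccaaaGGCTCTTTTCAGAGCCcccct
H2BC21: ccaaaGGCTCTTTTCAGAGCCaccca
H2AC25: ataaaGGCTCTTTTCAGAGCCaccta
H2BC9: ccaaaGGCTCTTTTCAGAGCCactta
H2AC11: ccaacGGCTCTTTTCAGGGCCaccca
H4C8: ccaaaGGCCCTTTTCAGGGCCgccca
H4C9: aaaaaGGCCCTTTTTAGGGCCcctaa
The stem-loop of H2BC5 lies at chr6:26158587-26158602 on the plus strand, and that of H2AC6 at chr6:26124669-26124684, also on the plus strand. Those of H2BC21 (chr1:149886188-149886203) and H2AC25 (chr1:228457369-228457384) lie on the minus strand. H2BC9 has it at chr6:26252055-26252070 on the plus strand and H2AC11 at chr6:27133515-27133530 on the plus strand. In H4C8 it lies at chr6:26285131-26285146 on the minus strand, and in H4C9 at chr6:27139654-27139669 on the plus strand.

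Many H2A and H2B genes start head to head and share the DNA between them, so the promoters of the 4 leading members with such a partner are shown next. The windows run from 250 bases before to 50 bases after the annotated start in RefSeq (GRCh38.p14), 5′ to 3′ on the strand of the named gene. Capitals mark TATAAA (the TATA box), CCAAT and ATTTGCAT (the octamer bound by OCT1), searched on both strands, so that reverse complements are in capitals too. Matches that overlap form a single run of capitals.
H2BC12: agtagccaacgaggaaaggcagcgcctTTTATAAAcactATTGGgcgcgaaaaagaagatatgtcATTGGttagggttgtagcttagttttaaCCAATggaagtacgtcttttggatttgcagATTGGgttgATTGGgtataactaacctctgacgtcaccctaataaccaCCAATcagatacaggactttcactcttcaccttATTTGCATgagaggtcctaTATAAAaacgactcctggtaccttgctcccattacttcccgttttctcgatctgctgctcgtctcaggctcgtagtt
H2BC21: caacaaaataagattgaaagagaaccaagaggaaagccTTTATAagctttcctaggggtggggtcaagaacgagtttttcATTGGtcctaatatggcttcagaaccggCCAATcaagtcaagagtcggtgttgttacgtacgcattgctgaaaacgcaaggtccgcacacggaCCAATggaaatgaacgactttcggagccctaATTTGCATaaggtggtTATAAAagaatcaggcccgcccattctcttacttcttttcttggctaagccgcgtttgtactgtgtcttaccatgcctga
H2AC6: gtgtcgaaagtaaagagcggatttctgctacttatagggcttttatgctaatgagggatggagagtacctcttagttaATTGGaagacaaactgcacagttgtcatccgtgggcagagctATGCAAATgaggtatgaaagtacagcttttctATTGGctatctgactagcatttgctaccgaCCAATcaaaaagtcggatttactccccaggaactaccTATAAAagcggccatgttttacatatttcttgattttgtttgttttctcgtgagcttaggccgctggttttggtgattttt
H2AC25: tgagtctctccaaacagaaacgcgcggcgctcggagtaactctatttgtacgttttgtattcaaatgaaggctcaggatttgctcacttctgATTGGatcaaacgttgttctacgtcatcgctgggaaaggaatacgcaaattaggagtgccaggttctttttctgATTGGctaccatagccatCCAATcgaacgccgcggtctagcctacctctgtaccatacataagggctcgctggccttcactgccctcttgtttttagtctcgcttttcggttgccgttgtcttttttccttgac
The H2BC12 window is chr6:27146809-27147108 on the minus strand, that of H2BC21 is chr1:149886633-149886932 on the minus strand, that of H2AC6 is chr6:26123922-26124221 on the plus strand, and that of H2AC25 is chr1:228457824-228458123 on the minus strand. The windows of H2BC12, H2BC21 and H2AC6 hold each of these motifs, while that of H2AC25 holds CCAAT but neither TATAAA nor the octamer. Of 68 windows for 64 members in the table, TATAAA was present in 45, or 66.2%, against 11.5% of all 35116 windows. CCAAT was present in all 55 windows of H1, H2A, H2B and H3 genes but in 3 of 13 H4 windows, 85.3% in all, against 34.6% of all windows. The octamer was found in 15 of 20 H2B windows, 11 of 16 H2A windows and 1 H3 window, 39.7% of the members' windows against 1.77% of all. The AAACACA element known from H1 promoters was in all 6 H1 windows and 3 others, 13.2% against 5.64%. These are matches of letters and not shown sites.

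Most of the counts of replication-dependent histone genes in these libraries of differentiated Caco-2 cells fell on 6 genes. H2BC12, H2BC5 and H2BC21 encode H2B, H2AC6 and H2AC25 encode H2A, and H1-2 encodes a linker histone. Together they held 86.9% of the family's 143163 counts, between 86.1% and 88.2% in each of the 9 libraries. H2BC12 held 27.9%, H2BC5 20.7%, H1-2 11.9%, H2AC6 11.4%, H2BC21 8.90% and H2AC25 6.05%. The sixth had 5.33 times the counts of the seventh member, H2AC11, which held 1.14%. Per length of coding sequence, the order was the same except that H1-2 stood the fifth. H2BC12 had 207 CPM (counts per 1000000, scaled by the TMM method) per kb of coding sequence, H2BC5 153, H2AC6 82.3, H2BC21 65.97, H1-2 52.5, H2AC25 43.6 and H2AC11 8.16. Reads in untranslated regions add to these values without adding to the length.

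**Figure D1:**
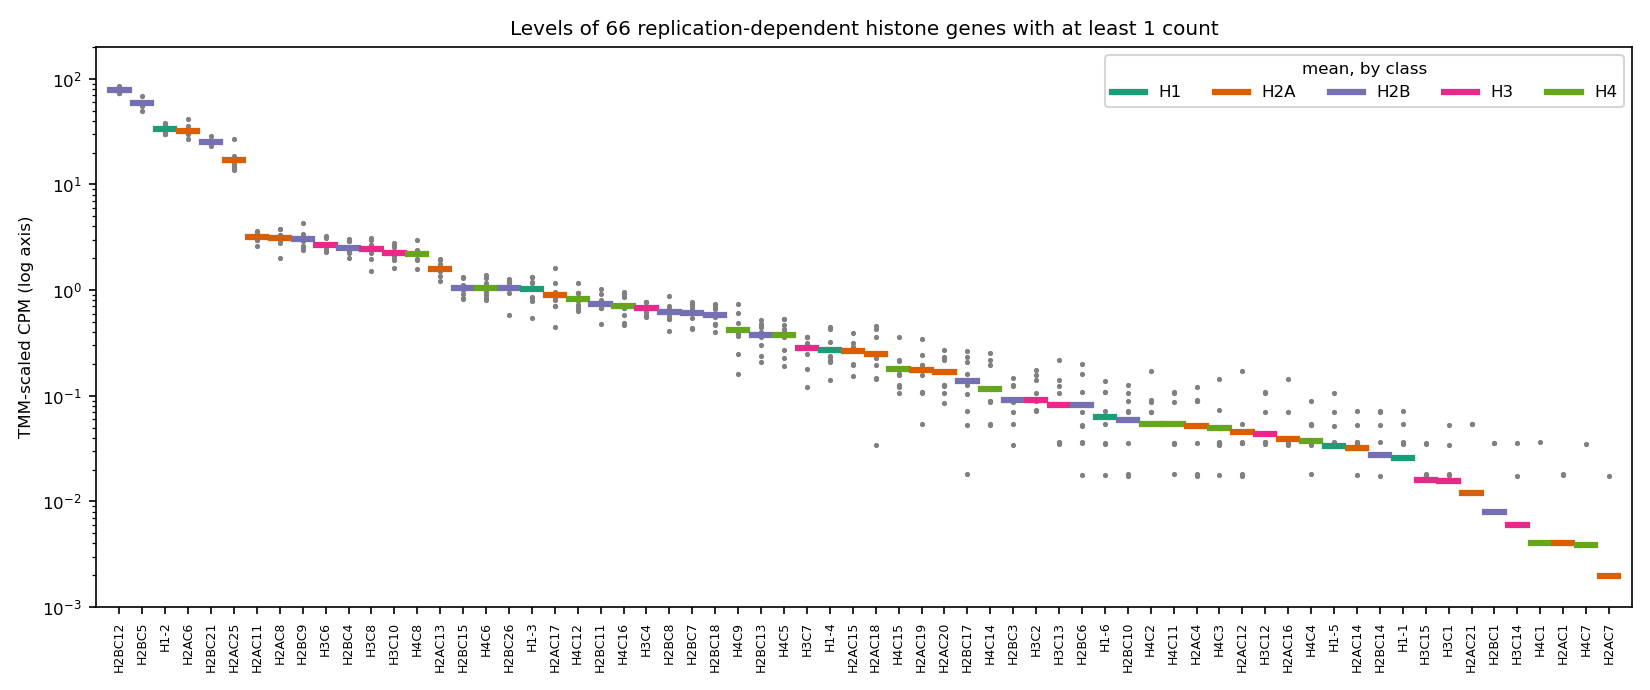
Each column is a histone gene, ordered by its mean level over 9 libraries. Coloured bars give the mean TMM-scaled CPM and grey points the libraries with at least 1 count, on a log axis. The 6 genes on the left lie between 17.1 and 78.7 CPM, and the next, H2AC11, at 3.21 CPM.

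Of the 69 members 39 had enough counts for a test, 3 of H1, 10 of H2A, 13 of H2B, 5 of H3 and 8 of H4. The other 63 members beside the leading 6 lay in a middle group and a group near the limit of detection. The 33 of them that were tested averaged 0.116 to 3.21 CPM. The remaining 30 members had at most 46 counts over all libraries, median 16.5, and together 0.365% of the family's counts. H3C3, H3C11 and H4C13 were listed at 0 in every library. With 507177938 counts in all, 0 counts allow a level of up to 0.00592 CPM, which covers counting error only. A low count can also reflect how reads shared between near-identical copies were treated, a setting not given in the sources used here. In 15 members at least 50% of all stretches of 50 bases in their transcripts also occur in another gene, and in 29 members none do. H3C14, H3C15, H2AC18 and H3C4 each share 100% of these stretches with some other gene, and H2BC12 shares 74.1%. Of the other leading members H2BC21 shares 8.11% and H2BC5 5.36%, H2AC6 0.421% and H2AC25 0.591%, while H1-2 shares none. These shares are over annotated transcripts, which for H2BC12 and H1-2 end less than 30 bases past the stop codon. For the other 4 leading members they also count stretches further past it. The shares of the leading members are thus not like for like.

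The family took 0.0265% to 0.0302% of all counts per library. By class, H2B genes held 61.4% of the family's counts, H2A 20.99%, H1 12.4%, H3 3.04% and H4 2.16%. The counts of the classes are thus far from equal in these libraries, although a nucleosome holds equal numbers of the 4 core histones. The level of histone mRNA without a poly(A) tail cannot be read from these counts. These shares are therefore not shares of histone supply. By place, the large cluster on chromosome 6 (6p22, 55 members) held 83.9%, the 1q21 cluster (11 members) 9.46% and the 1q42 pair of H2AC25 and H2BC26 6.43%. H4C16, alone on chromosome 12, held 0.249%.

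The annotated transcript ends were compared with the levels. A poly(A) signal, AATAAA or its common variant ATTAAA, stood in the last 50 bases of an annotated transcript, after any stem-loop, in 22 members, which held 54.9% of the counts. These include H2BC5, H2AC6, H2BC21 and H2AC25. Their levels had a median of 3.79 CPM per kb of coding sequence. In 13 members with an assessed end there was no such signal, and they held 3.19% of the counts, with a median of 1.33 CPM per kb of coding sequence and H2AC8 the highest of them in CPM at 3.13. The 34 members not assessed held 41.9%, nearly all from H2BC12 and H1-2. The annotated transcripts extended 1729 bases past the stem-loop in H2BC21, 1128 bases in H2AC6 and 390 bases in H2AC25, but 39 bases in H2BC5. The last value is for the H2BC5 transcript in which the stem-loop was found. H2BC5 has 2 annotated transcripts, and its longest annotated end runs 384 bases past the stop codon. Whether the counted reads lie past the stem-loop cannot be read from counts per gene.

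The head-to-head pairs were uneven. Of 12 H2A-H2B pairs whose starts lie 194 to 248 bases apart, 10 had the same partner higher in all 9 libraries, per count. H2BC12 had 4153 to 4762 counts per library, while H2AC12, 248 bases away in the other direction, had 0 to 10. H2BC21 had 1259 to 1597 counts and H2AC20 5 to 15. Per kb of coding sequence the level of H2BC21 was 153 times that of H2AC20. In the pairs of H2AC6 with H2BC4 and of H2AC25 with H2BC26 it was the H2A gene that was higher, 12.4 times and 15.7 times per kb of coding sequence. Neither class led in general, since by mean level the H2B gene was higher in 5 pairs and the H2A gene in 7. Among these are H2AC14 with H2BC14 (16 against 14 counts over all libraries) and H2BC1 with H2AC1 (4 against 2 counts). Those counts are too few to say which partner is higher. H2AC7 had 1 count in all libraries beside 311 of H2BC7, but it shares 98.0% of its stretches with other genes and lies over H3C4, so its count is uncertain. H2AC17, which was 6.37 times H2BC17 per kb of coding sequence, shares 86.3%.

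**Figure D2:**
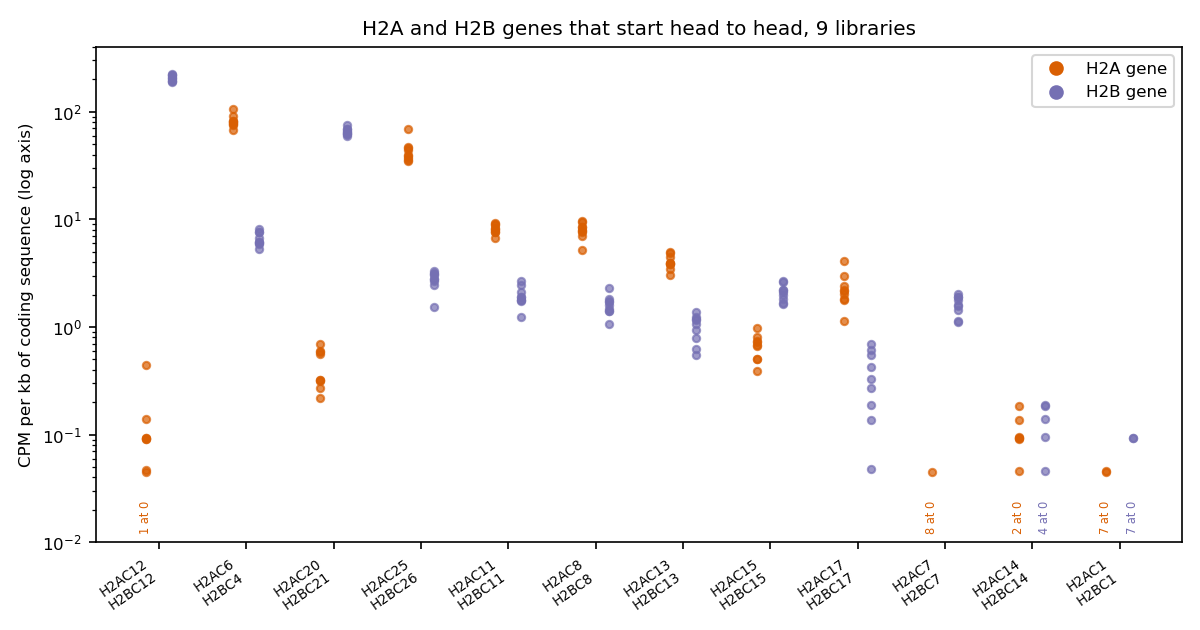
Levels of both genes of 12 head-to-head H2A-H2B pairs, in CPM per kb of coding sequence on a log axis, with 1 point per library and libraries at 0 given as a number. In the pairs H2AC12 and H2BC12, H2AC6 and H2BC4, H2AC20 and H2BC21, and H2AC25 and H2BC26, all 9 points of the leading gene lie above those of its partner, by over 10 times on average.

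Several replication-independent histone genes had higher levels. H2BC12, the highest member, had 207 CPM per kb of coding sequence, against 584 for H3-3A, 278 for H2AZ1 and 264 for H2AZ2. Of the 12 tested variant genes, 6 stood above H2BC12 on this scale. The sum over all 69 members averaged 283 CPM over the 9 libraries.

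The depth was 54871018 to 57581301 counts per library, and 16017 genes had enough counts for a test. Correlations of log2 CPM were 0.988 to 0.994 within groups and 0.988 to 0.993 between groups. On the first principal component (20.9% of the variance) stood carmine C at 34.5 and the other 8 libraries between -19.4 and 14.5. Carmine C held the highest or lowest value of 44.1% of all tested genes, and of 9 of the 39 tested histone genes. Of the 11 enterocyte markers checked (VIL1, CDX2, CDH1, EPCAM, ALPI, SI, FABP1, KRT20, APOA1, ANPEP and DPP4), 10 passed the filter and their sum was 6578 to 7286 CPM, while KRT20 was at 0 in every library. The immune markers summed to 17.03 to 20.8 CPM. Stromal markers summed to 103 to 154 CPM, mostly COL1A1.

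The first question was whether either dye changed the total supply of these mRNAs. The summed level of all members was 266, 304 and 298 CPM in carmine A, B and C, and 263, 285 and 303 CPM in carminic acid A, B and C, against 276, 285 and 263 CPM in control A, B and C. The means were 289 ± 20.3 CPM with carmine, 284 ± 19.6 CPM with carminic acid and 274 ± 10.96 CPM in control (SD, n = 3 each). The 3 groups overlap, and their means differ by less than the SD of the carmine samples. In bulk RNA fewer expressing cells and less RNA per cell cannot be told apart.

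The class sums also overlapped between each dye and control, with 1 exception. H3 genes summed to 8.48, 9.41 and 10.4 CPM with carminic acid, against 8.28, 7.68 and 8.02 CPM in control, so the lowest carminic acid sample lay just above the highest control. With carmine they summed to 7.52, 8.30 and 9.38 CPM. H2A genes summed to 51.9, 60.8 and 78.4 CPM with carmine, against 57.5, 57.9 and 54.5 CPM in control, and the high value is carmine C. H2B genes averaged 175 ± 12.97 CPM with carmine, 175 ± 10.2 CPM with carminic acid and 169 ± 6.26 CPM in control (SD, n = 3 each). H4 genes averaged 5.67 ± 0.913 CPM with carmine, 6.31 ± 0.568 CPM with carminic acid and 6.30 ± 0.421 CPM in control (SD, n = 3 each). A sum over members carries no test here.

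No histone gene passed the threshold, an adjusted p under 0.05 over all tested genes in the quasi-likelihood test of edgeR, in any of the 3 comparisons. Of all 16017 genes, 0% passed it with carmine against control, 0% with carminic acid against control and 0.00624% (1 gene, CNIH1) with carmine against carminic acid. At an unadjusted p under 0.05 edgeR gave 2 of 39 members with carmine against control, beside 11% of all genes. None of them was higher (5.38% of all genes) and both were lower (5.61% of all genes). With carminic acid against control it gave 0 of 39, higher or lower, beside 6.43% of all genes (2.52% higher and 3.91% lower). Between carmine and carminic acid it gave 1 of 39, which was lower, beside 8.9% of all genes (5.65% higher and 3.25% lower). With both directions together, the shares of members are below those of all genes in each comparison. Counts of 2, 0 and 1 of 39 are too few to set the members apart. The shares that were lower were 5.13% of members beside 5.61% with carmine, 0% beside 3.91% with carminic acid, and 2.56% beside 3.25% between the dyes. Most members also have few counts, which limits how small their p-values can be. DESeq2 and limma-voom called 0 members as well, with 15 of the 39 members left without an adjusted p by DESeq2 in carmine against control and 30 in carmine against carminic acid.

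The 6 leading genes have the most counts of the family. Their fold changes against control were between 0.06 and 0.38 (log2) with carmine and at most 0.10 (log2) with carminic acid. H2BC12 had 73.8, 84.8 and 83.5 CPM with carmine and 72.8, 80.2 and 83.4 CPM with carminic acid, against 77.4, 78.7 and 73.8 CPM in control. The groups overlap, and the 95% intervals of the log2 fold change were -0.09 to 0.24 with carmine and -0.13 to 0.21 with carminic acid. H2BC5 had 59.4, 68.3 and 49.96 CPM with carmine and 56.9, 60.5 and 60.7 CPM with carminic acid, against 55.9, 59.7 and 54.9 CPM in control. Its interval was -0.15 to 0.27 with either dye, and carmine held both the highest and the lowest library. H1-2 had 30.3, 37.99 and 37.4 CPM with carmine and 29.9, 35.3 and 34.2 CPM with carminic acid, against 32.1, 36.4 and 30.01 CPM in control. These overlap fully, with intervals of -0.12 to 0.33 with carmine and -0.21 to 0.24 with carminic acid. H2BC21 had 26.3, 26.5 and 22.9 CPM with carmine and 23.6, 25.2 and 28.9 CPM with carminic acid, against 24.9, 24.1 and 23.7 CPM in control. Its intervals were -0.14 to 0.26 with carmine and -0.11 to 0.30 with carminic acid.

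The 2 leading H2A genes were highest in carmine C. H2AC6 had 26.6, 32.2 and 41.5 CPM with carmine and 30.1, 31.1 and 35.6 CPM with carminic acid, against 32.0, 31.9 and 29.9 CPM in control. Carmine A is the lowest of the 9 libraries and carmine C the highest, and the log2 fold change with carmine was 0.10 ± 0.128 (SE; adjusted p = 0.787, edgeR). Without carmine C it was -0.08. The 95% intervals were -0.18 to 0.37 with carmine and -0.23 to 0.32 with carminic acid. H2AC25 had 15.6, 18.2 and 27.1 CPM with carmine and 14.5, 13.7 and 18.4 CPM with carminic acid, against 17.3, 15.3 and 14.1 CPM in control. Its log2 fold change with carmine was 0.38 ± 0.180 (SE; adjusted p = 0.454, edgeR), and 0.12 without carmine C (adjusted p = 0.724). Its intervals, -0.01 to 0.77 with carmine and -0.39 to 0.39 with carminic acid, are the widest of the 6. The part of the library's own deviation in these values was not tested.

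**Figure D3:**
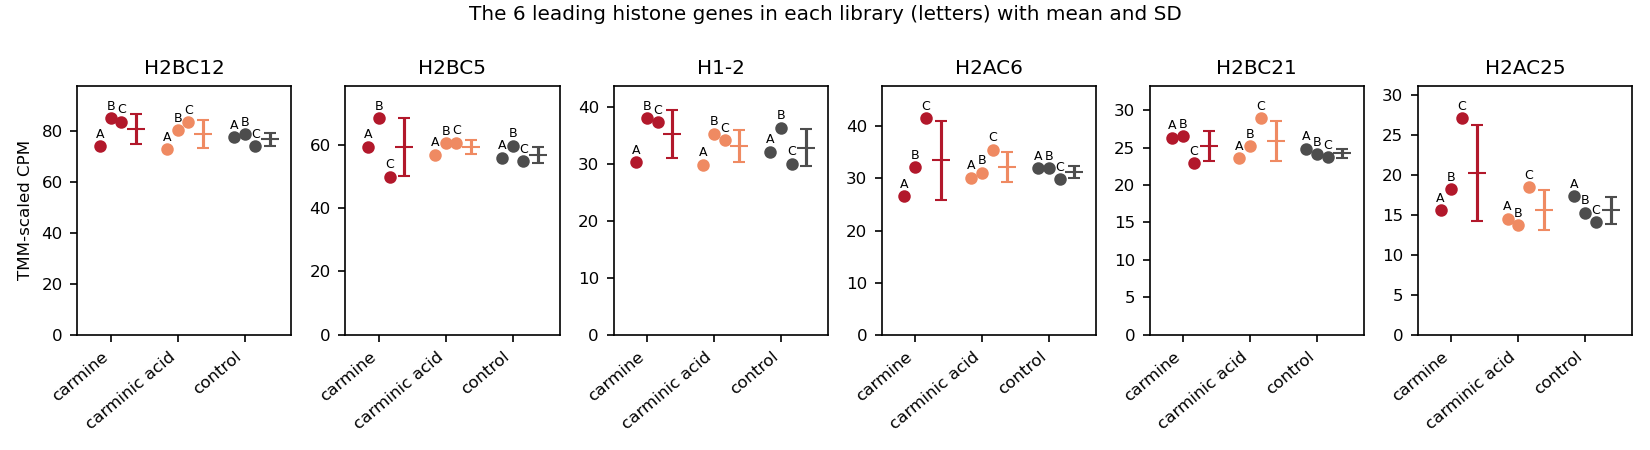
TMM-scaled CPM of the 6 leading histone genes in each library, marked by its letter, with the mean and SD of each group (n = 3) beside the points. The groups overlap in all 6 panels. Carmine C is highest for H2AC6 (41.5 CPM) and H2AC25 (27.1 CPM) and lowest for H2BC5 (49.96 CPM) and H2BC21 (22.9 CPM).

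With carmine, 22 of 39 tested members had a positive fold change (51.7% of all genes), with a median log2 fold change of 0.03 (0.0066 over all genes). The groups did not overlap for 4 members, all lower with carmine, against 15% of all genes (7.32% higher and 7.67% lower). They were H2AC18, H2BC9, H2BC18 and H2AC15. H2BC9, an H2B gene of the 6p22 cluster, had 2.42, 2.48 and 2.62 CPM with carmine and 3.21, 2.89 and 2.97 CPM with carminic acid, against 3.37, 4.28 and 3.03 CPM in control. Every carmine sample lay below every other library. The log2 fold change was -0.51 ± 0.158 (SE; adjusted p = 0.368, edgeR), and -0.35 without control B, the highest library. H2AC18 had 2, 8 and 8 counts with carmine and 14, 11 and 20 counts with carminic acid, against 24, 26 and 13 counts in control. The log2 fold change was -1.78 ± 0.513 (SE; adjusted p = 0.332, edgeR). H2AC18 has a copy, H2AC19, with nearly the same sequence, which had 14, 11 and 6 counts with carmine, against 3, 11 and 9 counts in control, so how reads were split between them is uncertain.

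Among the rest with carmine, H2BC18 had 28, 26 and 26 counts with carmine, against 37, 39 and 41 counts in control (log2 fold change -0.54 ± 0.286, SE; adjusted p = 0.479, edgeR). Its annotated span overlaps FCGR1A. H2AC15 had 9, 15 and 11 counts with carmine, against 16, 22 and 18 counts in control, for a log2 fold change of -0.67 ± 0.381 (SE; adjusted p = 0.512, edgeR). H1-4, a linker histone, had 26, 24 and 12 counts with carmine, against 18, 12 and 8 counts in control. The largest positive fold change of the members was that of H1-4, 0.70 ± 0.415 (log2, SE; adjusted p = 0.527, edgeR), and its groups overlap. H3C10 was at 0.28 ± 0.190 (log2, SE; adjusted p = 0.581, edgeR). H4C8, the highest H4 gene, had 1.597, 1.96 and 2.39 CPM with carmine, against 2.96, 2.35 and 2.19 CPM in control, for a log2 fold change of -0.34 ± 0.191 (SE; adjusted p = 0.512, edgeR). The other tested members lay between -0.75 (H2BC17) and 0.58 (H2AC20) on the log2 scale.

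With carminic acid, 27 of 39 tested members had a positive fold change (48.1% of all genes), with a median log2 fold change of 0.06 (-0.0078 over all genes). Without carminic acid C the median was -0.01 and 19 members were positive. Carminic acid C held the highest of the 9 values for 12 of the 39 members (6.34% of all genes), and the lowest for 1. The groups did not overlap for 1 member (20.8% of all genes), H3C6, where it was higher (12% of all genes higher and 8.82% lower). This H3 gene had 2.66, 3.09 and 3.26 CPM with carminic acid, against 2.33, 2.31 and 2.65 CPM in control, so the lowest carminic acid sample and the highest control all but touch. Its log2 fold change was 0.31 ± 0.152 (SE; adjusted p = 0.717, edgeR). H3C10 was at 0.35 ± 0.189 (log2, SE; adjusted p = 0.717, edgeR), and all 5 tested H3 genes had a positive value. H4C6 was at 0.30 ± 0.241, H1-3 at 0.33 ± 0.292 and H2AC20 at 0.81 ± 0.519 (log2, SE), the last from 13, 7 and 15 counts with carminic acid, against 7, 6 and 7 counts in control. H2BC17, with 3, 9 and 4 counts against 7, 15 and 12 counts in control, was at -1.06 ± 0.679 (log2, SE; adjusted p = 0.717, edgeR).

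Carmine against carminic acid sets the dyes against each other, with the control libraries entering only through the shared filter, scaling and estimate of the spread. The single call among all genes was lost when control A, B or C, carmine B or carminic acid A was left out. Of the 39 tested members 12 had a positive fold change (51.1% of all genes), with a median log2 fold change of -0.13 (0.0046 over all genes). This rests in part on carminic acid C: without it the median was -0.01 and 19 members were positive. The groups did not overlap for 6 members, all lower with carmine, against 13.1% of all genes (7.09% higher and 6.01% lower). These were H2AC18, H2BC8, H2BC9, H4C9, H2BC13 and H4C12. H2AC18 was at -1.31 ± 0.532 (log2, SE; adjusted p = 0.510, edgeR). H4C9 had 0.378, 0.160 and 0.364 CPM with carmine, against 0.491, 0.732 and 0.380 CPM with carminic acid, for -0.82 ± 0.420 (log2, SE; adjusted p = 0.598, edgeR). The nearest samples all but touch, and in unscaled counts they overlap (22 in carmine A, 21 in carminic acid C). The span of H4C9 lies within that of H2BC12. H3C7 was at -0.72 ± 0.409, H2BC4 at -0.30 ± 0.171 and H1-4 at 0.69 ± 0.415 (log2, SE), with adjusted p of 0.640, 0.642 and 0.654 (edgeR). Among the leading genes the intervals were narrowest for H2BC12, -0.13 to 0.20 (log2).

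**Figure D4:**
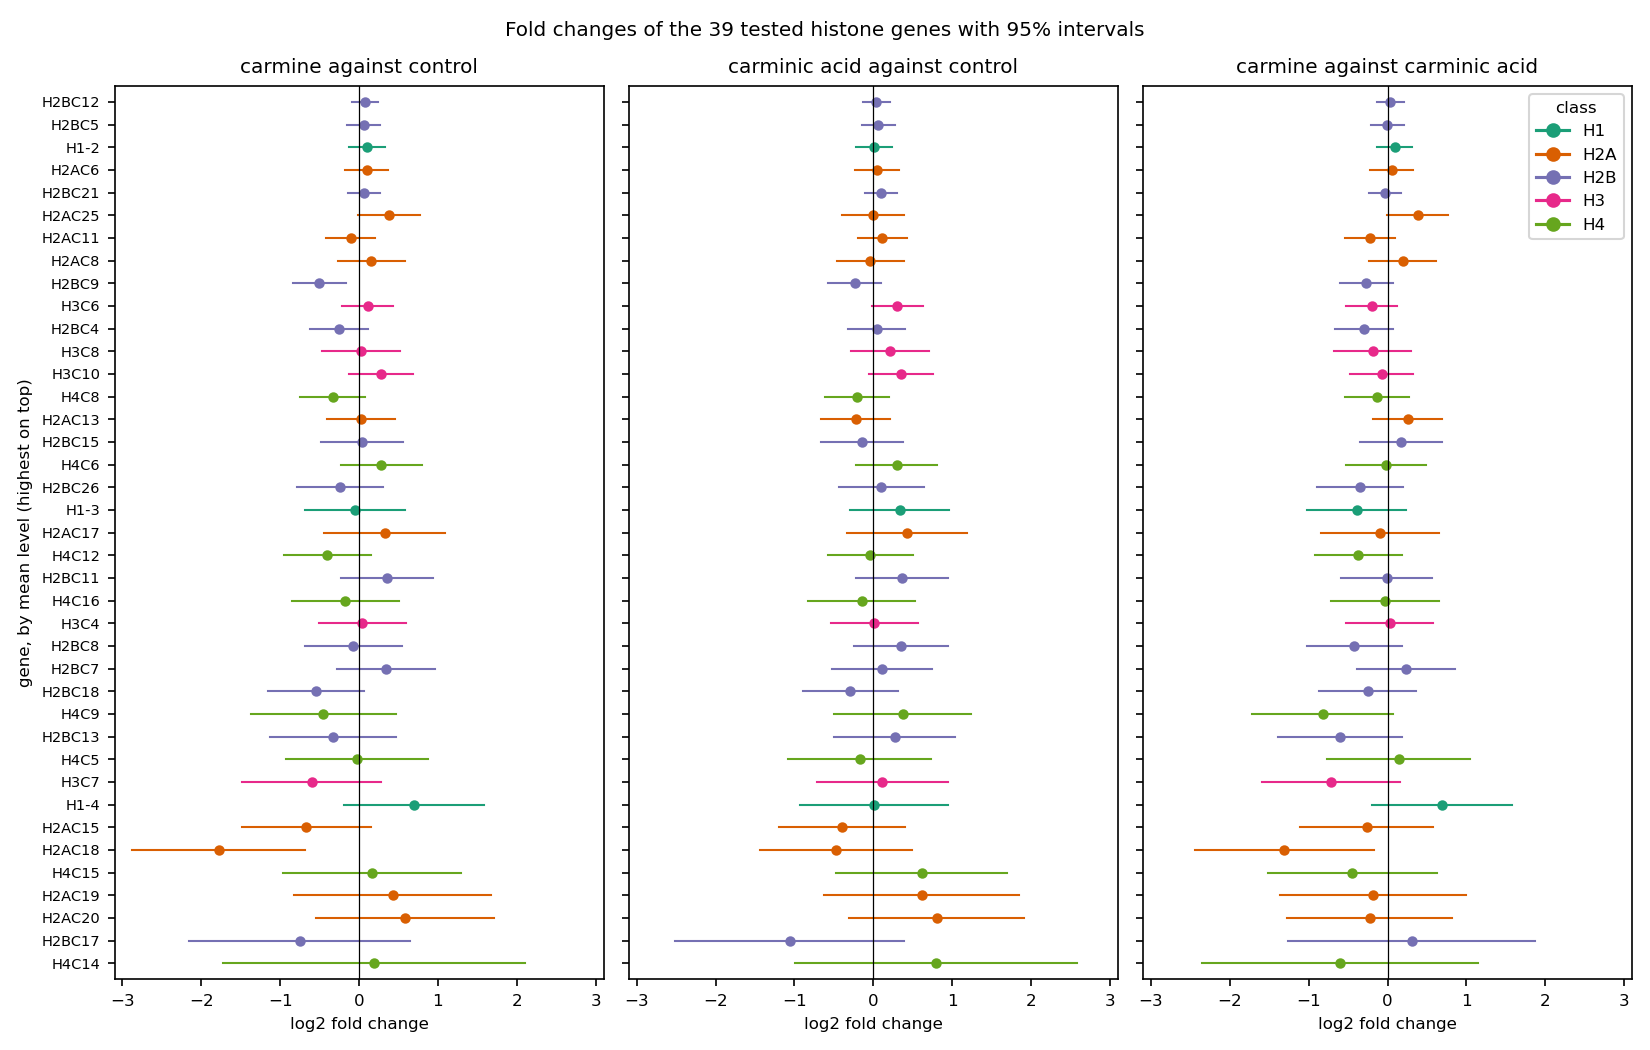
Log2 fold changes of the 39 tested histone genes in the 3 comparisons, with 95% intervals from edgeR, the gene with the highest mean level on top and colours for the class. The intervals of the 6 leading genes include 0 in all 3 panels, and the widest intervals belong to genes with few counts at the bottom.

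The genes that act with these histones were described from lists, none of which had a member with an adjusted p under 0.05. Of 12 tested variant histone genes 10 had a positive fold change with carmine (median 0.15, log2) and 8 with carminic acid (median 0.03, log2). CENPA, the H3 variant of centromeres, had 7.97, 8.96 and 9.82 CPM with carmine, against 6.22, 7.01 and 7.41 CPM in control, for 0.37 ± 0.117 (log2, SE; adjusted p = 0.371, edgeR). H1-10, a linker histone variant, had 99.2, 113 and 156 CPM with carmine, against 97.1, 95.4 and 86.0 CPM in control, again highest in carmine C. The same library was highest for H2AX (62.8 CPM), H2AJ (56.4 CPM) and H3-3A (307 CPM). H2AZ2 had the smallest p with carminic acid, at -0.08 ± 0.0708 (log2, SE; adjusted p = 0.754, edgeR).

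Of 32 tested factors that transcribe and process histone mRNA, 15 had a positive fold change with carmine (median -0.02, log2) and 10 with carminic acid (median -0.05, log2). SLBP had 39.3, 43.6 and 44.4 CPM with carmine and 38.6, 37.0 and 40.3 CPM with carminic acid, against 36.9, 41.3 and 41.8 CPM in control. NPAT, the coactivator of histone transcription, had 40.7, 39.1 and 27.3 CPM with carmine and 37.1, 32.4 and 38.7 CPM with carminic acid, against 38.7, 39.2 and 43.4 CPM in control, and its lowest value is carmine C. EXOSC10, a subunit of the nuclear exosome, had the smallest p with carmine, at -0.18 ± 0.0732 (log2, SE; adjusted p = 0.422, edgeR). CSTF3, a cleavage stimulation factor, had the smallest with carminic acid, at -0.23 ± 0.0919 (log2, SE; adjusted p = 0.717, edgeR). Of 23 tested histone chaperones 6 were positive with carmine and 9 with carminic acid. CHAF1A, the large subunit of the assembly factor CAF-1, was at -0.25 ± 0.0958 with carmine (log2, SE; adjusted p = 0.394, edgeR) and HIRA, which deposits H3.3, at 0.14 ± 0.0700 with carminic acid (log2, SE; adjusted p = 0.717, edgeR).

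S-phase genes were set beside the histones because both belong to DNA replication. Of 34 tested, 23 had a negative fold change with carmine (median -0.04, log2) and 26 with carminic acid (median -0.10, log2). CLSPN, the checkpoint adaptor claspin, had 9.29, 9.08 and 7.89 CPM with carmine and 10.1, 9.30 and 9.54 CPM with carminic acid, against 11.1, 13.1 and 12.9 CPM in control. Every sample of either dye lay below every control. The log2 fold changes were -0.50 ± 0.106 with carmine (SE; adjusted p = 0.162, edgeR) and -0.35 ± 0.106 with carminic acid (SE; adjusted p = 0.717, edgeR), both against the same controls. At an unadjusted p under 0.05 edgeR gave 5 S-phase genes with each dye, all lower, beside 5.61% of all genes lower with carmine and 3.91% with carminic acid, and adjusted p-values kept none. Of 16 G2 and mitosis genes, 6 were positive with carmine and 2 with carminic acid. MKI67, the proliferation antigen, had 183, 193 and 148 CPM with carmine, against 233, 199 and 214 CPM in control, at -0.30 ± 0.0995 (log2, SE; adjusted p = 0.378, edgeR). CDK1, the mitotic kinase, had the smallest p of this list with carminic acid, at -0.17 ± 0.0941 (log2, SE; adjusted p = 0.717, edgeR).

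**Figure D5:**
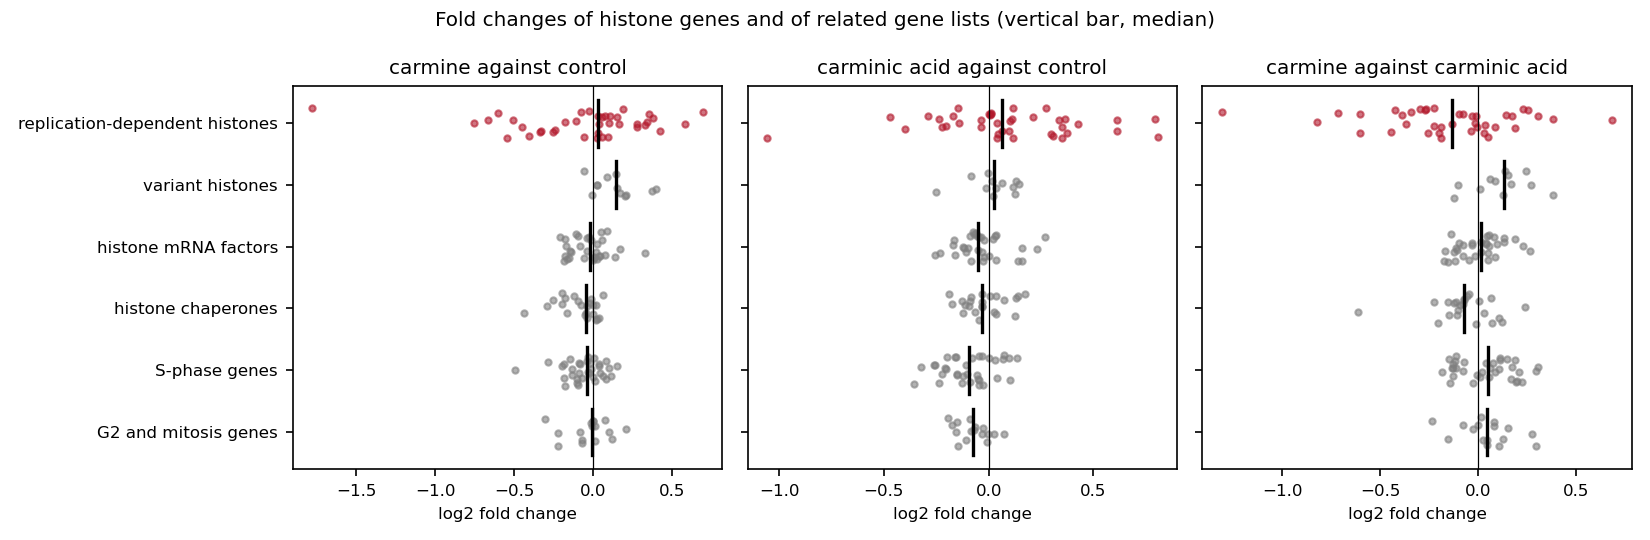
Log2 fold changes of the 39 tested histone genes and of 5 related lists in the 3 comparisons, with 1 point per gene (spread vertically for sight only) and a vertical bar at the median. The histone medians are 0.03 with carmine and 0.06 with carminic acid against control, beside S-phase medians of -0.04 and -0.10.

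RNAs made without a poly(A) tail, such as RN7SK and RMRP, show how far the libraries hold such molecules at all. Of 18 listed, 8 were tested. The sum over all 18 was 7.35, 8.60 and 12.6 CPM with carmine and 11.3, 23.8 and 7.11 CPM with carminic acid. In control it was 12.4, 6.78 and 9.65 CPM. The highest sum, carminic acid B, is not the library with the highest histone sum, which is carmine B. RPPH1, the RNA of ribonuclease P, had the smallest p with carmine, at 0.93 ± 0.632 (log2, SE; adjusted p = 0.575, edgeR). RNU6ATAC, a minor spliceosome RNA, had it with carminic acid, at 0.87 ± 0.452 (log2, SE; adjusted p = 0.717, edgeR). The sources used here name no library kit and thus no poly(A) selection, so the level of tailless histone mRNA cannot be read from these counts.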

How the data were processed

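RNA-seq of 9 libraries, 3 per group, was analysed. The values are raw counts per gene, deposited 1 file per library with NCBI Gene IDs. Total RNA was prepared with a column kit, per the labels' protocols. Per the file headers the aligner was HISAT2. The submitters' processing notes list FastQC, HISAT, featureCounts and the build hg38, with no version. Not given in the sources used here were the kit, the strand setting, the annotation release and the handling of reads with several matches. Counts of near-identical and overlapping histone genes are therefore uncertain.

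Members were matched by Gene ID to current symbols in RefSeq (GRCh38.p14). Members and lists were chosen with earlier results of these data known, so no pattern here is independent support for those results. The test was that of edgeR 4.0.16 in R 4.3.3: filterByExpr by group (minimum count 10), TMM factors, 1 robust quasi-likelihood model of all 9 libraries without covariates, 3 two-sided contrasts, and Benjamini-Hochberg adjustment over all 16017 tested genes (threshold 0.05). The log2 CPM values behind the correlations and principal components use a prior count of 2. Fold changes are those of the edgeR test at its default setting. Standard errors come from the fold change and F statistic, and intervals are 95% intervals. Sums over members get no test. Lists, of which H3-7 was not analysed here, are described by counts and medians beside all genes. Named in full were, in each class, the member with the highest mean CPM and those with the smallest p in each contrast, and for each list the gene with the smallest p against control with either dye. The other histone genes with values, including the leading 6, those whose groups did not overlap, and SLBP, NPAT, H1-10, H2AX, H2AJ and H3-3A, were chosen after their values were seen. Coding lengths and transcript ends come from GENCODE release 29.

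Pairs of libraries of a group differed beyond sampling noise (chi-square per degree of freedom of 9.51 or more). Same-letter libraries did not deviate together in log2 CPM (correlations -0.15 to 0.0952), so letters were not used as pairs in the main test. These correlations were taken without removal of length and GC trends. With trends removed, a replicate block raised the genes called from 216, 3 and 8 to 671, 13 and 23 in the 3 comparisons. A letter effect after that removal was not tested. The steps were tested on simulated data. The alternatives were other scalings (RLE, library size), filters, DESeq2 1.42.0, limma-voom (limma 3.58.1), non-robust estimation, a replicate block, removal of length and GC trends, fits to the 6 libraries of a contrast alone, a stricter threshold of 0.01 on the adjusted p, and each library left out.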

Additional observations from a re-analysis of the deposited data

How the results depend on the processing

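No histone gene reached an adjusted p under 0.05 under any of the alternatives run. The lowest was 0.0576, for H2AC18 in carmine against control with a replicate block and length and GC trends removed. In 983 of 986 refits, named members kept the sign of their fold change or changed it by less than the SE of the main fit. The size of a change without a change of sign was not limited by this rule, so this share does not measure how stable the values were. The exceptions were H2AC6 without carmine C (-0.08 against control and -0.12 against carminic acid) and H2BC17 without carmine B (-0.61, carmine against carminic acid). The cause was not tested.

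The number of all genes called moved between the alternatives. These calls were a small part of the 16017 tested genes. The absence of calls among the 39 tested histone genes therefore cannot show that they moved less. In carmine against control, 0 genes became 7 with RLE size factors, 7 with library size alone, 19 without the filter, 81 with DESeq2, 43 with limma-voom, 216 with trends removed, 671 with a replicate block and trends removed, 12 with only the 6 libraries, and 0 to 36 with a library left out. In carminic acid against control, 0 became 2 without the filter, 6 with DESeq2, 34 with limma-voom, 3 with trends removed, 13 with a replicate block and trends removed, 49 with only the 6 libraries, and 0 to 21 with a library left out. In carmine against carminic acid, 1 became 2 with RLE size factors, 2 with library size alone, 9 without the filter, 77 with DESeq2, 13 with limma-voom, 8 with trends removed, 23 with a replicate block and trends removed, and 0 with non-robust estimation, a replicate block alone, a replicate block with library size alone or an adjusted p under 0.01. Leaving out a library gave 0 to 685, the highest without carmine C. The replicate block alone changed no histone call.

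Without the filter, positive members numbered 36 with carmine against control and 29 in carmine against carminic acid (median -0.014), more members being counted. With CPM above 1 in 3 libraries, which leaves fewer members, they numbered 13, 13 and 7 in the 3 comparisons, with a median of -0.038 in carmine against carminic acid. Leaving out single libraries gave medians of -0.011 to 0.10 for carminic acid against control and of -0.21 to -0.0093 for carmine against carminic acid, where 11 to 19 members were positive. They also gave 7 to 12, 4 to 10 and 6 to 12 of 39 members whose groups do not overlap (17.9% to 30.8%, 10.3% to 25.6% and 15.4% to 30.8%) in the 3 comparisons, beside 21.5% to 32.3%, 27% to 39.1% and 18.6% to 38.7% of all genes, since fewer samples overlap less. With library size alone there were 2 of 39 for carminic acid against control. The share of all genes was 20.8% with the main scaling and is not given here for library size alone. The H3 sum in control was 7.67 CPM over tested members only. Depth limits the 30 untested members and those with few counts, whose intervals reach past a log2 fold change of 2.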
